A study of Mus musculus with 4 samples.

Results

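The 10 genes described here belong to the NRF2 and glutathione system: Nfe2l2, Keap1, Gclc, Gclm, Gsr, Nqo1, Hmox1, Txnrd1, Srxn1 and Gpx4. They were taken by gene symbol, and all 10 were found among the 32592 genes of the table. Sequencing of poly(A) RNA gave their transcript levels in CCE, a line of mouse embryonic stem cells from strain 129/Sv kept without feeder cells in serum with leukemia inhibitory factor and 2-mercaptoethanol. One group of 2 libraries is labelled as having received short hairpin RNAs (shRNAs) against Eif4a2, and the other, also of 2, received control shRNAs, which the treatment protocol names shLuc and shEV. Both groups went through 3 days of selection in 1 µg/mL puromycin and were collected on day 4.5. The protocol names 2 shRNAs against Eif4a2, and the labels do not say which library received which hairpin, nor whether the libraries of a group came from separate cultures. The p-values therefore measure only the spread between these libraries, which may be technical.

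NRF2, the product of Nfe2l2, is a transcription factor that is held at a low level by KEAP1, an adaptor that hands it to a CUL3 ubiquitin ligase for degradation. When oxidants or electrophiles modify cysteines of KEAP1, NRF2 accumulates, pairs with small MAF proteins and binds the antioxidant response element in its target genes. Those targets make and recycle glutathione, the main thiol of the cell, and serve the thioredoxin system, quinone reduction and heme breakdown.

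The libraries held between 4604200 and 13681765 recovered reads, with control 2 the shallowest, and each of the 10 genes had between 60 and 5699 reads per library. Eif4a2 itself was at 753 and 814 normalized counts in the knockdown-labelled libraries and at 531 and 379 in the controls (log2 change 0.80, SE 0.15, limma adjusted p = 0.014). This is against the label of the targeted transcript, and each direction below compares the knockdown-labelled libraries with the controls by label alone. If the group labels were exchanged every direction would turn, which was not tested. Of the 6 embryonic stem cell markers 4 fell (Sox2, Zfp42, Esrrb and Klf4) and 0 rose, with sums of 5439 and 5317 in the knockdown-labelled libraries against 7555 and 7739. Of the 9 fibroblast markers 5 were tested, of which 2 rose (Col1a1 and Pdgfrb) and 0 fell. All 9 fibroblast markers summed to 46.1 and 47.5 against 28.3 and 25.6, with Dcn and Lum listed at 0 in all 4 libraries. Of the 6 trophectoderm markers 5 were tested, of which 2 rose (Krt7 and Hand1) and 0 fell. All 6 summed to 107 and 118 against 86.5 and 56.1, with Elf5 listed at 0. Of the 6 primitive endoderm markers, all tested, 0 were called, and they summed to 39.1 and 41.6 against 32.4 and 39.4. Over all 14890 genes tested, 12.4% fell and 10.5% rose. The part of these markers in the results below was not tested, and in bulk RNA fewer cells of a type and less RNA per cell cannot be told apart.

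The 3 genes of the set that fell are shown first by the 250 bases before their RefSeq start site (GRCm38.p6, 5′ to 3′ on the strand of the gene) so that the letters at their starts can be compared. Capitals mark core letters of the antioxidant response element, TGACNNNGC or TGAGNNNGC, searched on both strands in windows of 250 bases before to 50 bases after the start. The second form was added after the sequences were seen, and it can overlap TGAGTCA, the letters of the AP-1 site. Nqo1 lies on the minus strand (chr8:107403206-107403455), Srxn1 on the plus strand (chr2:152105274-152105523) and Gclm on the plus strand (chr3:122245307-122245556).
Nqo1: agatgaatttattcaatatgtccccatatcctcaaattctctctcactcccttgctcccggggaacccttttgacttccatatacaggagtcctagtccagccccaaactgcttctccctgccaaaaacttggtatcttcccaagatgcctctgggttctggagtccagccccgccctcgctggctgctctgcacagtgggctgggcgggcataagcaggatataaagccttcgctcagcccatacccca
Srxn1: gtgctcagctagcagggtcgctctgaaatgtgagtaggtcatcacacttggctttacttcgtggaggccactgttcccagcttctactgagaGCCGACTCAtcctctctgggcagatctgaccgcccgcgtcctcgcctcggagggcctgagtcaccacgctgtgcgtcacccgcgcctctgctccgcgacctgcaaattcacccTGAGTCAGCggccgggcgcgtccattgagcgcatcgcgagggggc
Gclm: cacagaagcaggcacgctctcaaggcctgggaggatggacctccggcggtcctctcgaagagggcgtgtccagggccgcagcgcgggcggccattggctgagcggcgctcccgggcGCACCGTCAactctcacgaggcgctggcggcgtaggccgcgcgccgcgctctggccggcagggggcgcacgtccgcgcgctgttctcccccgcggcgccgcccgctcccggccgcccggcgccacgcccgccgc
Gclm held 1 match, TGACNNNGC read on the opposite strand. Srxn1 held TGAGNNNGC on the opposite strand and, 45 bases before the start, on its own strand. Nqo1 held neither form in this window.

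Windows were found in RefSeq for 7 of the 10 genes, all except Gclc, Gsr and Hmox1, and 4 of those had a match in at least 1 window. The other 3 matches, all of the form TGACNNNGC, are shown with 10 bases on either side, in the same notation, because they sit in 1 gene that fell and 2 that did not pass the test. Nfe2l2 itself carries its match on the gene's own strand, 240 bases before the start (chr2:75704885-75704913). Srxn1 has one that begins 28 bases past the start (chr2:152105542-152105570), and Txnrd1 one that begins 92 bases before the second of its 3 listed starts (chr10:82859104-82859132), both read on the opposite strand.
Nfe2l2: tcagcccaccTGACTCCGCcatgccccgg
Srxn1: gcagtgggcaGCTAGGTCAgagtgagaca
Txnrd1: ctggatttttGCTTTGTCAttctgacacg
Among all 32851 windows 12.4% held TGACNNNGC, 17.6% held TGAGNNNGC and 27.8% either, and among all 27025 genes with such windows 30.8% held either, so these letters are common. Matches were thus present in Gclm and Srxn1, which fell, and also in Nfe2l2 and Txnrd1, which did not pass the test. Keap1, Nqo1 and Gpx4 had no match in their windows. A match is a description of the sequence and not a bound site.

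In the knockdown-labelled libraries, 3 of the 10 genes fell (Nqo1, Srxn1 and Gclm), 1 rose (Gpx4) and 6 did not pass the test. Over the 14890 genes tested with limma at a Benjamini-Hochberg adjusted p below 0.05, 12.4% fell, 10.5% rose and 23% passed in either direction. All 10 genes passed the filter on low counts. The median log2 change of the 10 genes was -0.27, beside -0.01 over all genes tested. Levels did not overlap between the groups for 6 genes that were lower and 3 that were higher, where 34.6% of all tested genes were lower without overlap and 32.1% higher, 66.8% in all. An exact permutation test of 2 against 2 libraries cannot go below p = 0.333, so the calls rest on the spread that limma shares across genes. The plot of normalized counts by library shows each value.

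**Figure D1:**
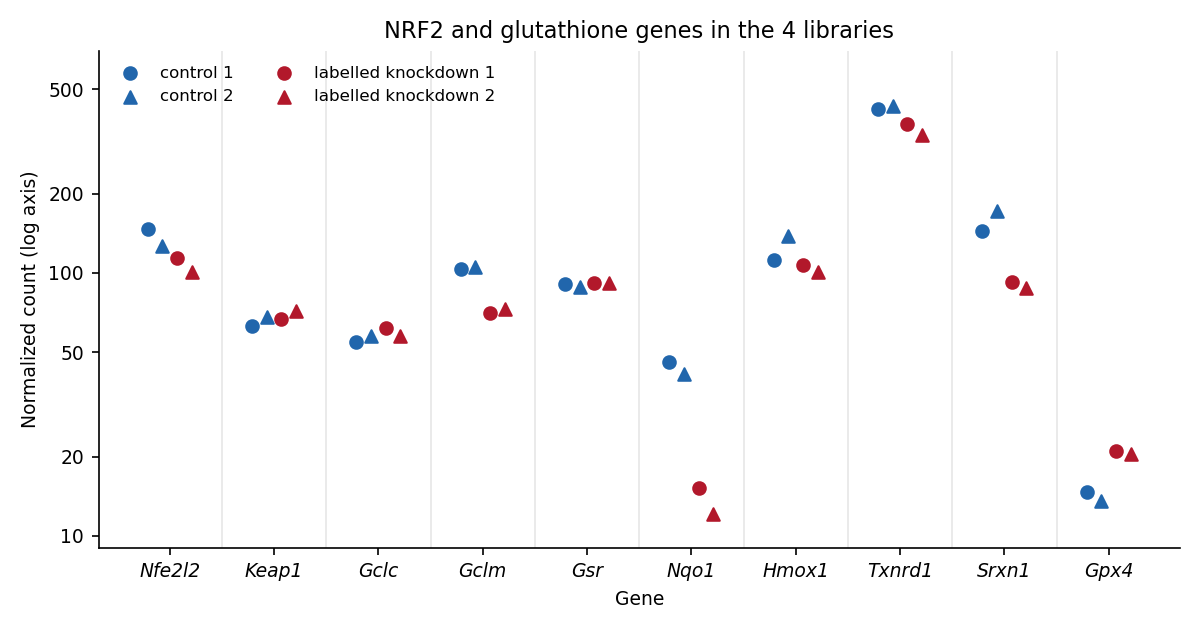
Normalized counts (log axis) of the 10 genes in each of the 4 libraries, with controls in blue and knockdown-labelled libraries in red, and circles and triangles for the first and second library of a group. Nqo1 stands at 12.1 to 15.2 in red against 41.4 to 45.9 in blue, Srxn1 and Gclm are also lower in both red libraries, and Gpx4 is the gene with both red points clearly above both blue ones.

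Of the pair that sets NRF2 activity, neither gene passed the test. Nfe2l2 (ENSMUSG00000015839, chromosome 2) stood at 114 and 101 normalized counts in the knockdown-labelled libraries and at 147 and 126 in the controls. Both values were below both control values, but the difference missed the threshold (log2 change -0.34, 95% interval -0.60 to -0.09, limma adjusted p = 0.0598). Nfe2l2 was further from the threshold with library size only (log2 change -0.22, limma adjusted p = 0.202) and by DESeq2 (adjusted p = 0.099). It was called by edgeR's quasi-likelihood test on the recovered reads (adjusted p = 0.0484), which called 25.1% of all genes. Without control 1 or without control 2 it was also called in limma, with log2 changes of -0.23 and -0.45 and adjusted p = 0.00477 and 9.39e-09, but those fits called 51.9% and 45.7% of all genes. Its adjusted p ranged from 9.39e-09 to 0.458 over the 16 alternatives.

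Keap1 (ENSMUSG00000003308, chromosome 9), the repressor of NRF2, was at 66.7 and 71.3 against 62.8 and 67.9, so the groups overlapped. Its log2 change was 0.08 (95% interval -0.15 to 0.30, limma adjusted p = 0.585). After correction for GC content, a fit that called 21.5% of all genes, the estimate turned to -0.12 (limma adjusted p = 0.404), and Keap1, at 58% GC, is one of the GC-rich genes of the set. The annotated antisense transcript Gm16754 overlaps 10.9% of its exon bases, and a strand-aware count is stated nowhere in the labels, so reads of that stretch cannot be told apart.

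Glutathione is built by glutamate-cysteine ligase, whose catalytic subunit is encoded by Gclc and whose modifier subunit, which raises the efficiency of the enzyme, by Gclm. Gclm (ENSMUSG00000028124, chromosome 3) was at 70.3 and 73.1 normalized counts in the knockdown-labelled libraries and at 103 and 105 in the controls. The 2 libraries of each group lay close together and far from the other group. Gclm fell 1.45-fold as a ratio of group means, from 104 ± 1.49 to 71.7 ± 1.98 (SD, n = 2 each; log2 change -0.53, SE 0.08, limma adjusted p = 0.00872). With knockdown-labelled library 1 or 2 left out it did not pass in limma (adjusted p = 0.0786 and 0.0717), with log2 changes of -0.50 and -0.56. Those 2 fits called 7.68% and 4.39% of all genes. The pseudogene Gm6061 covers 3.88% of the exon bases of Gclm on the same strand, in a stretch of 244 bases that is near-identical in Ppia and several Ppia-like genes, so reads there are uncertain. On the opposite strand Gm17494 overlaps 4.71% of the exon bases of Gclm, and with no strand setting given those reads are uncertain too.

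Gclc (ENSMUSG00000032350, chromosome 9) did not pass the test. It was at 61.7 and 57.7 in the knockdown-labelled libraries and at 54.5 and 57.5 in the controls, with a log2 change of 0.09 (95% interval -0.14 to 0.32, limma adjusted p = 0.527). The lowest knockdown-labelled value and the highest control value of Gclc were nearly equal. The ratio of Gclm to Gclc normalized counts did not overlap between the groups, at 1.14 and 1.27 in the knockdown-labelled libraries and at 1.89 and 1.83 in the controls. The means were 1.20 ± 0.0903 and 1.86 ± 0.0424 (SD, n = 2 each), a log2 difference of -0.63 with a two-sided exact permutation p = 0.333, the smallest that 2 against 2 allows.

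Gsr (ENSMUSG00000031584, chromosome 8) encodes glutathione reductase, which returns oxidized glutathione to its thiol form with NADPH. It was the steadiest of the 10 genes, at 91.7 and 91.3 normalized counts in the knockdown-labelled libraries and at 90.9 and 88 in the controls. Its log2 change was 0.03 (95% interval -0.16 to 0.23, limma adjusted p = 0.802).

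Nqo1 (ENSMUSG00000003849, chromosome 8), a quinone reductase that is a widely used readout of NRF2, had the largest change of the set. It stood at 15.2 and 12.1 normalized counts in the knockdown-labelled libraries and at 45.9 and 41.4 in the controls, which rests on 171 and 155 reads against 624 and 183. Both knockdown-labelled libraries were below a level of 20 and both controls above 40. Nqo1 fell 3.2-fold, from 43.7 ± 3.19 to 13.6 ± 2.2 (SD, n = 2 each; log2 change -1.62, SE 0.15, limma adjusted p = 0.00271). Its p-value was the 62nd smallest among the 14890 genes tested, and 0.215% of tested genes had a log2 change this low or lower. In the authors' deposited table its log2 fold change was -1.69 with an adjusted p of 1.88e-21.

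Hmox1 (ENSMUSG00000005413, chromosome 8), the heme oxygenase that breaks heme into biliverdin, iron and carbon monoxide, did not pass the test. It was at 107 and 101 in the knockdown-labelled libraries and at 112 and 138 in the controls. The groups did not overlap, but control 1 lay nearer to the knockdown-labelled libraries than to control 2. The log2 change was -0.26 (95% interval -0.53 to 0.02, limma adjusted p = 0.149), and it was called without control 1 (-0.41, limma adjusted p = 2.09e-07) but not without control 2 (-0.10, limma adjusted p = 0.27). Over the 16 alternatives the adjusted p of Hmox1 lay between 2.09e-07 and 0.596.

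Srxn1 and Txnrd1 serve the thioredoxin and peroxiredoxin branch. Srxn1 (ENSMUSG00000032802, chromosome 2) encodes sulfiredoxin, which repairs overoxidized peroxiredoxins, and was at 92.7 and 87.3 normalized counts in the knockdown-labelled libraries and at 144 and 171 in the controls. Both controls were well above both knockdown-labelled libraries, and they differed from each other more than the latter did. Srxn1 fell 1.75-fold, from 158 ± 19.3 to 90 ± 3.82 (SD, n = 2 each; log2 change -0.80, SE 0.11, limma adjusted p = 0.00564). Without control 1 its log2 change was -0.92, and without control 2 it was -0.67.

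Txnrd1 (ENSMUSG00000020250, chromosome 10) encodes cytosolic thioredoxin reductase, a selenoprotein that keeps thioredoxin reduced, and had the most reads of the set. Its normalized counts were 368 and 334 in the knockdown-labelled libraries and 419 and 431 in the controls. Both were below both controls, and the difference narrowly missed the threshold (log2 change -0.28, 95% interval -0.48 to -0.08, limma adjusted p = 0.0522). Txnrd1 was further from the threshold with library size only (log2 change -0.16, limma adjusted p = 0.181) and by DESeq2 (adjusted p = 0.116). Without control 1 or control 2 it was called in limma (-0.30 and -0.26, adjusted p = 4.97e-06 and 0.000122), in fits that called 51.9% and 45.7% of all genes, and its adjusted p ranged from 4.97e-06 to 0.537 over the alternatives.

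Gpx4 (ENSMUSG00000075706, chromosome 10) encodes the selenoprotein that uses glutathione to reduce lipid hydroperoxides and thereby holds back ferroptosis, a form of cell death driven by lipid peroxidation. It was the single gene of the set that rose. Its normalized counts were 21 and 20.6 in the knockdown-labelled libraries and 14.6 and 13.6 in the controls, from 236 and 264 reads against 199 and 60. The groups were apart, and the values within each group were close. The ratio of means was 1.47, from 14.1 ± 0.756 to 20.8 ± 0.28 (SD, n = 2 each; log2 change 0.53, SE 0.14, limma adjusted p = 0.0356). The rise was the least stable call of the set: it did not pass under 7 of the 16 alternatives. Among these were DESeq2 (adjusted p = 0.11) and limma without knockdown-labelled library 1 or 2 (adjusted p = 0.288 and 0.308). After GC correction the log2 change was 0.29 (limma adjusted p = 0.177, within a range of 0.00024 to 0.308 over the alternatives), and Gpx4 had the highest transcript GC of the set, 60.2% in a range that starts at 42.1%. The copy Gpx4-ps2 is 99.7% identical to Gpx4 over 762 bases, so its low level and its change are uncertain where reads fit both.

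**Figure D2:**
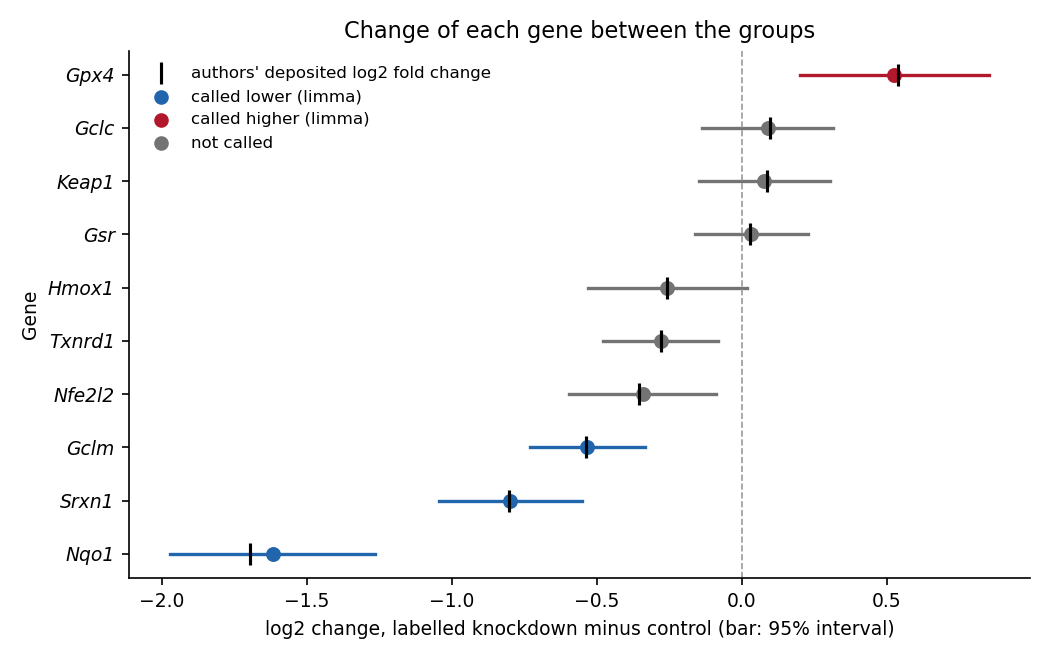
The log2 change of each gene between the knockdown-labelled libraries and the controls on the log2(normalized count + 1) scale (dot, with its 95% interval as a bar), and the authors' deposited log2 fold change as a black tick. Nqo1 at -1.62, Srxn1 at -0.80 and Gclm at -0.53 are lower, Gpx4 at 0.53 is higher, and the 6 grey genes did not pass the test.

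By the authors' deposited table the same 4 genes passed an adjusted p below 0.05, with log2 fold changes of -1.69 for Nqo1, -0.80 for Srxn1, -0.54 for Gclm and 0.54 for Gpx4. Of all 32592 genes, 5.61% passed there as lower and 5.91% as higher. Nfe2l2 came close there too, with an adjusted p of 0.0512 in the authors' deposited table.

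Levels can be compared between genes only per length, so normalized counts were divided by the kilobases of annotated exon. In the controls Hmox1 was highest, at 71.4 ± 10.9 normalized counts per kb (SD, n = 2), followed by Txnrd1 at 60 ± 1.18 and Srxn1 at 55.9 ± 6.86. Then came Nfe2l2 at 36.1 ± 3.88, Gsr at 32.5 ± 0.737 and Nqo1 at 28.1 ± 2.06. The lowest were Gclm at 16.6 ± 0.237, Gclc at 14.9 ± 0.552, Keap1 at 13.9 ± 0.769 and Gpx4 at 8.19 ± 0.438. The place of Gpx4 is uncertain, because reads that also fit its copy Gpx4-ps2 may be missing from its count. Of neighbours in this order, Txnrd1 and Srxn1 had overlapping libraries, and the other neighbours did not overlap, though several were close.

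In the knockdown-labelled libraries the order per kb was different at the lower end. Nqo1 went from the sixth place to the last, at 8.77 ± 1.42 per kb. Gpx4, whose place is again uncertain because of Gpx4-ps2, stood at 12 ± 0.162, above Gclm at 11.4 ± 0.315. Hmox1 (59.3 ± 2.45) and Txnrd1 (49.5 ± 3.41) stayed first and second, and Gsr (33.2 ± 0.0963) stood above Srxn1 (31.9 ± 1.35). The 2 subunit genes of glutamate-cysteine ligase were near equal per kb in the controls, with a Gclm to Gclc ratio of 1.13 and 1.10. In the knockdown-labelled libraries that ratio per kb was 0.682 and 0.759.

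**Figure D3:**
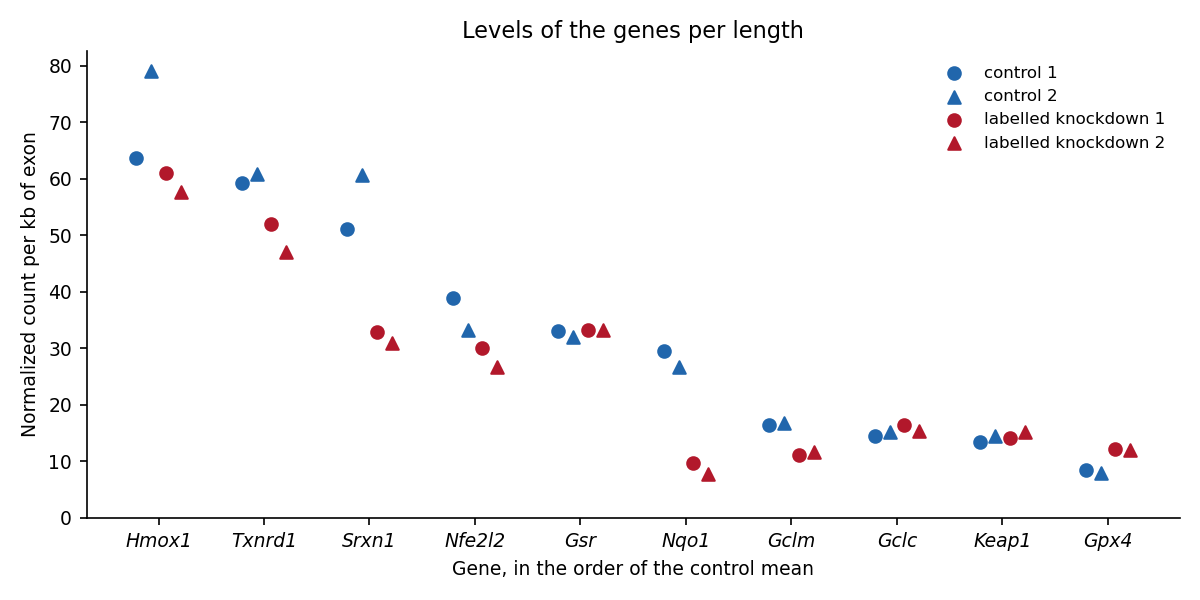
Normalized counts per kb of annotated exon for the 10 genes in each library, ordered by the control mean (controls blue, knockdown-labelled libraries red). Hmox1 and Txnrd1 lead in all 4 libraries, while Nqo1 falls from 28.1 per kb on average in the controls to 8.77, the lowest mean of the set in the knockdown-labelled libraries.

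The wider pathway was read from 6 lists that hold 112 other genes, of which 109 were tested. Among these 26 fell (23.9%) and 5 rose (4.59%), against 12.4% and 10.5% of all genes tested, and the median log2 change was -0.08, beside -0.01 over all genes. With library size as the only scaling, which raised the median of all genes by 0.114, the split was 15 that fell and 8 that rose, against 6.69% and 14.5% of all genes. Under it the medians of 5 lists turned positive, from 0.005 to 0.10, and that of ferroptosis and iron stayed at -0.02, whereas the calls of the 10 genes stayed at 3 lower and 1 higher. The median over all genes was 0.102 under it, above that of each list. The signs of the list medians thus depend on the scaling, while under these 2 scalings each list median lay below that of all genes. That did not hold in every setting for glutathione supply and use. Its median was 0.020 by edgeR, beside -0.009 over all genes, and 0.012 by DESeq2, beside 9.77e-05. Without control 2 it was 0.047, beside -0.017.

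Among 11 genes that control NRF2, 3 fell (27.3%) and 1 rose (9.09%), beside 12.4% and 10.5% of all genes tested (median log2 change -0.12). Mafg, a small MAF partner of NRF2, fell from 112 ± 17.7 to 71.4 ± 2.25 (limma adjusted p = 0.0134), while its relative Mafk rose from 15.1 ± 3.69 to 23.8 ± 0.613 (limma adjusted p = 0.0433). Bach1, a repressor that competes with NRF2 for the same element, fell from 91.6 ± 20.8 to 58 ± 0.446 (log2 change -0.63, limma adjusted p = 0.0268). Its log2 change was -0.40 without control 1, and it was not called with library size only or without knockdown-labelled library 1 or 2 (the latter with limma adjusted p = 0.0527 and 0.0796). Cul3, the ligase scaffold that works with KEAP1, fell 1.24-fold from 178 ± 2.44 to 144 ± 1.13 (limma adjusted p = 0.0316). Cul3 was not called after GC correction (limma adjusted p = 0.194), with library size only or with either knockdown-labelled library left out. Mafk was not called after GC correction or with either knockdown-labelled library left out, and its log2 change went from 0.65 to 0.41 without control 2.

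Of 22 other targets of NRF2 tested, 7 fell (31.8%) and 1 rose (4.55%), beside 12.4% and 10.5% of all genes tested (median -0.10). Gsta4, a glutathione transferase that conjugates the lipid aldehyde 4-hydroxynonenal, fell 2.18-fold, from 159 ± 1.51 to 73 ± 6.12 (limma adjusted p = 0.00256). The UDP-glucose dehydrogenase gene Ugdh fell 1.68-fold and the heme transporter gene Slc48a1 1.5-fold (limma adjusted p = 0.0135 and 0.014). Ptgr1, which reduces lipid-derived enones, rose 1.73-fold, standing at 27.4 and 26.7 against 16.4 and 14.9 (limma adjusted p = 0.0113). Slc48a1 and Ptgr1 were not called with either knockdown-labelled library left out, nor Ugdh without knockdown-labelled library 2.

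Of 30 genes of glutathione supply and use, 5 fell (16.7%) and 2 rose (6.67%), beside 12.4% and 10.5% of all genes tested. The share called in either direction, 23.3%, was near the 23% of all genes, and the median was -0.02. Cth, which makes cysteine from cystathionine, fell 2.62-fold, from 80.7 ± 3.35 to 30.8 ± 2.2 (limma adjusted p = 0.00256). Chac1, which degrades glutathione, fell from 41.6 ± 27.3 to 8.02 ± 1.21, with controls as far apart as 22.3 and 60.9 (limma adjusted p = 0.0149). Its log2 change was -2.08 with all libraries, -2.78 without control 1 and -1.38 without control 2. Slc3a2, the heavy chain of cystine and amino acid transporters, fell 1.43-fold (limma adjusted p = 0.0112), though not with either knockdown-labelled library left out. Oplah, which returns 5-oxoproline to glutamate, rose 1.76-fold, from 23.3 ± 0.3 to 41 ± 1.66 (limma adjusted p = 0.00676, and 0.0747 without knockdown-labelled library 2).

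In the branch of thioredoxins, peroxiredoxins and superoxide dismutases, 4 of 18 genes fell (22.2%) and 0 rose in limma (median -0.05). Of all genes tested 12.4% fell and 10.5% rose. With an unadjusted p below 0.05, 5 were lower and 0 higher, beside 3010 and 2763 of all 14890 genes tested. By edgeR and DESeq2 likewise 4 were called lower and 0 higher. Among all 14890 genes edgeR called 1958 lower and 1784 higher, and DESeq2 1252 and 967. Sod2, the mitochondrial superoxide dismutase, fell 1.86-fold, from 219 ± 4.33 to 118 ± 0.721 (limma adjusted p = 0.00256). The mitochondrial peroxiredoxin gene Prdx3 fell 2.39-fold, from 37.2 ± 1.09 to 15.5 ± 2.5 (limma adjusted p = 0.00443). Prdx1 fell 1.48-fold and Prdx6 1.31-fold (limma adjusted p = 0.00583 and 0.0179). Prdx1 and Prdx3 encode substrates of sulfiredoxin, the product of Srxn1, as do other peroxiredoxin genes such as Prdx2 and Prdx4. Prdx2 stood at 74.6 and 73.7 against 69.6 and 73.5 (limma adjusted p = 0.706), and Prdx4 at 37.8 and 35.3 against 41 and 36.7 (limma adjusted p = 0.626); both were named after their values were seen. Prdx6 was not called with either knockdown-labelled library left out, nor Prdx1 without knockdown-labelled library 2.

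Gpx4 and Txnrd1 contain selenocysteine, which is inserted by dedicated factors. Of 18 genes of that machinery and of other selenoproteins, 5 fell (27.8%) and 1 rose (5.56%), beside 12.4% and 10.5% of all genes tested (median -0.07). Eefsec, the elongation factor that brings selenocysteine to the ribosome, fell 1.68-fold, from 64.3 ± 2.22 to 38.2 ± 1.08 (limma adjusted p = 0.00564). Sephs1 fell 1.59-fold, and the selenoprotein genes Selenoh and Selenof 1.48-fold and 1.33-fold (limma adjusted p = 0.00563, 0.00858 and 0.0162). Sephs2, Secisbp2, Pstk and Sepsecs did not pass (limma adjusted p = 0.13, 0.963, 0.739 and 0.626). Nor did Trnau1ap, with a log2 change of 0.42 (limma adjusted p = 0.0537). These uncalled genes were named after their values were seen. Selenof was not called with library size only or with either knockdown-labelled library left out, nor Selenoh without knockdown-labelled library 2. The 1 gene that rose, named after its values were seen, was Selenop, with 133 and 164 reads against 80 and 13. Its normalized counts were 11.8 and 12.8 against 5.89 and 2.94 (limma adjusted p = 0.0174).

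Of 10 genes of ferroptosis and iron, which act beside Gpx4, 2 fell (20%) and 0 rose in limma (median -0.15). Of all genes tested 12.4% fell, 10.5% rose and 23% passed either way. With an unadjusted p below 0.05, 3 were lower and 2 higher, beside 3010 and 2763 of all 14890 genes tested. In this list edgeR called 3 lower and 0 higher, and DESeq2 called 0 either way. Among all 14890 genes edgeR called 1958 lower and 1784 higher, and DESeq2 1252 and 967. Those called in limma were Dhodh, which reduces ubiquinone in mitochondria, from 91 ± 3.48 to 68.6 ± 0.374, and the phospholipid-remodelling gene Lpcat3, from 46.3 ± 0.777 to 35 ± 0.0421 (limma adjusted p = 0.0204 and 0.034). Neither was called with library size only or with either knockdown-labelled library left out.

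Other settings also ended calls among the genes named from the lists. Selenop, and G6pdx and Pgd named below, were not followed through each setting. Without the filter on low counts no gene of the lists was called (limma, 0 of 112). Without a variance trend, limma did not call Mafg, Bach1, Cul3, Mafk, Slc3a2, Chac1, Prdx6, Selenof, Dhodh or Lpcat3. DESeq2 did not call Cul3, Mafk, Dhodh or Lpcat3, upper-quartile scaling Cul3 or Lpcat3, and thinned reads Ptgr1 or Lpcat3. In the authors' deposited table Cul3 (adjusted p = 0.234), Prdx6 (0.0964) and Selenof (0.0716) did not pass, and the other list genes followed through each setting did. Exons of several of these genes overlap those of other genes, over 1.05% of bases in Slc48a1, 2.21% in Mafg, 2.34% in Ugdh, 4.33% in Mafk, 10.2% in Lpcat3 and 11% in Eefsec. The same holds for Oplah (5.07% and 6.6%, with 2 genes) and Selenop (15.45%). Among the uncalled genes named above, it holds for Pstk (58.8%), Sephs2 (36.4%) and Prdx2 (5.8% and 5.67%, with 2 genes). Reads in all those stretches are uncertain.

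**Figure D4:**
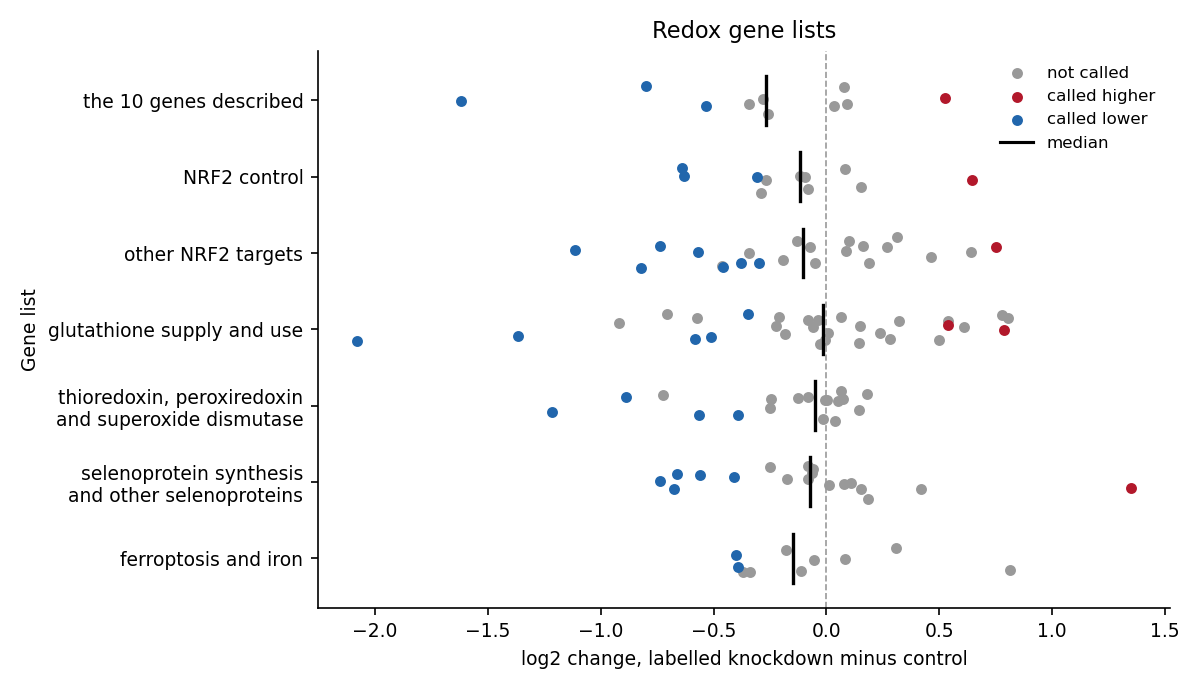
The log2 change of every tested gene of the 10 described and of the 6 pathway lists (blue, called lower; red, called higher; grey, not called), with the median of each list as a black bar and random vertical spread for legibility. The medians of the 6 lists lie between -0.15 and -0.02 and that of the 10 genes at -0.27. At the deposited scaling the lists hold 26 calls on the left and 5 on the right, and the 10 genes hold 3 and 1.

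Across the 16 alternatives Nqo1 kept its call in 15, with a log2 change between -1.77 and -1.46, and Srxn1 in 15, between -0.92 and -0.67. Gclm kept its call in 13, between -0.57 and -0.41. Gsr and Gclc were never called. Nfe2l2, Txnrd1 and Hmox1 were negative in every alternative and were called in 5, 3 and 2 of them.

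**Figure D5:**
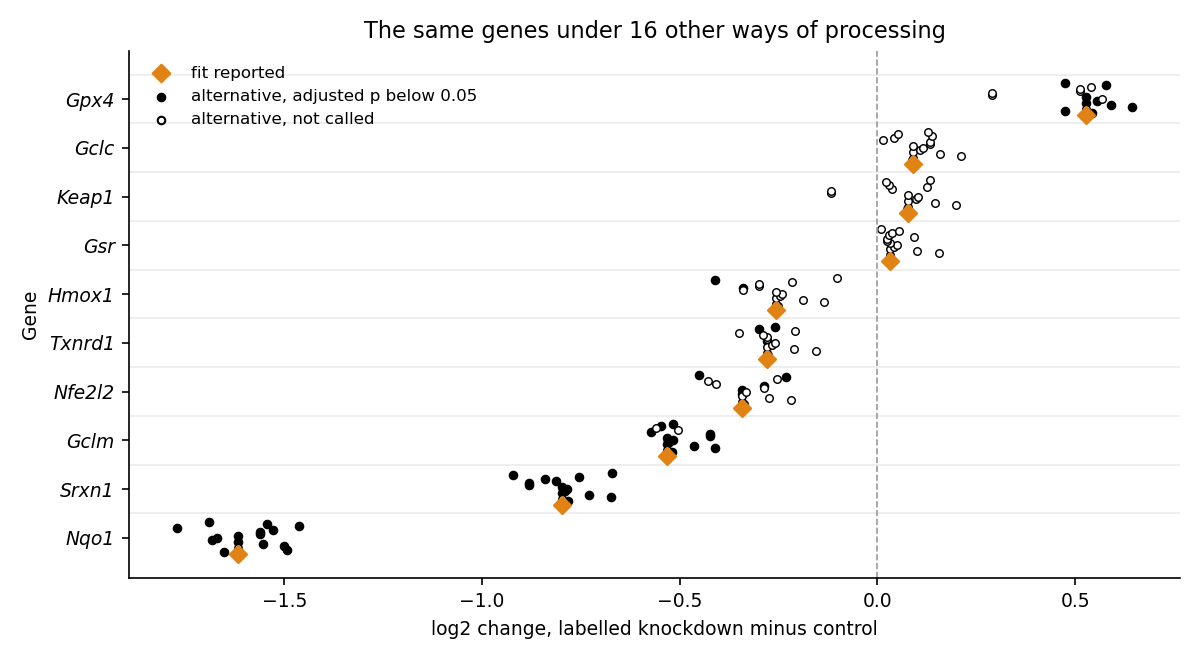
The log2 change of each gene in the reported fit (orange) and under 16 alternatives (filled black, adjusted p below 0.05; open, not called). Nqo1, Srxn1 and Gclm stay below 0 throughout, Gpx4 stays above 0 with several open points, and Keap1 crosses 0 after GC correction.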

How the data were processed

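Per the labels' protocols, 4 samples gave 1 µg of total RNA each for poly(A) libraries, read from 1 end over 100 bases. The submitters' processing notes name, without roles, Bowtie2 2.3.4.3, SAMtools 1.9, HTSeq 0.11.2, edgeR 3.26.8 and build mm9. Roles, annotation and strand setting are not given in the sources used. The deposited signal holds reads per gene over a scaled library size, called normalized counts here. The values show this, since 100% of them are whole multiples of 1 read within 0.001. Per the file headers, the authors' comparison holds log2 values (a fold change and a mean CPM), a score of the likelihood ratio, a p-value and an adjusted p-value.

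With limma 3.58.1 in R 4.3.3, log2(normalized count + 1) was fitted with a variance trend for the 14890 genes that passed filterByExpr of edgeR 4.0.16 on recovered reads. Tests were two-sided, adjusted by Benjamini-Hochberg over all of them and called below 0.05. Fold changes in the text are ratios of group means, and log2 changes are on the log2(normalized count + 1) scale, which understates the change of low genes. The fit was also run on simulated counts that gave every library the same dispersion. That run cannot speak for the wider spread between the controls given below. The 10 genes, the lists and the tests were chosen with earlier results of these data known. Beyond the 10 genes, up to 4 called genes with the smallest p were named per list. Exon lengths, GC content and overlaps came from GENCODE M21 (GRCm38), which matched 32590 genes; this differs from mm9, and no coordinate was converted. Near-identical copies were searched for the 10 genes alone, at 95% identity over at least 100 bases, and not for the list genes. Promoter windows came from RefSeq on GRCm38.p6, matched by symbol. Replicates were compared first: the chi-square of reads per degree of freedom was 2 between the knockdown-labelled libraries and 13.3 between the controls, so none was treated as a duplicate. No molecular identifiers are named, so PCR copies are not separate molecules and read numbers speak of counting error alone.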

Additional observations from a re-analysis of the deposited data

How the results depend on the processing

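Of the 16 alternatives, the pseudocounts of 0.5 and 3, library size only, upper-quartile scaling and limma without a variance trend kept the same counts of the 10 genes, 1 higher and 3 lower. With no filter on low counts limma called 13 genes in all, and 0 of the 10 genes as higher and 0 as lower (1 and 4 at an unadjusted p below 0.05). In that fit 11658 genes were at 0 in every library, and the cause was not tested. Genes called in all numbered 1932 without a variance trend and 2219 by DESeq2 1.42.0, against 3418. The rise of Gpx4 was lost by DESeq2, after GC correction (loess per library on transcript GC, also with the block), and with reads thinned to the shallowest library, leaving 0 higher in each (at an unadjusted p below 0.05, 1 by DESeq2 and with thinning and 0 after GC correction); the cause was not tested. Leaving out 1 library at a time gave 653 to 7724 genes called in all, 0 to 1 of the 10 genes higher and 2 to 6 lower. Such a fit rests its spread on the pair that stays complete, and that pair differs between these fits. The labels number the samples of both groups, but nothing says that a number marks a shared culture, and the differences between libraries 1 and 2 of the groups correlated by 0.0356 over genes. With the replicate block 4632 genes were called in all and 5 of the 10 genes were lower, with Nfe2l2 (limma adjusted p = 0.0112) and Txnrd1 (0.0423) added. With the block and GC correction 5 were lower, with Nfe2l2 (0.0434) and Hmox1 (0.0193) added and Txnrd1 not called (0.085). Keap1 reversed to a log2 change of -0.12 after GC correction and -0.12 with the block and GC correction. In the 6 lists, over the alternatives that kept all 4 libraries, the genes that fell numbered 0 to 32 and those that rose 0 to 11. The reported fit gave 26 and 5, beside 1851 and 1567 of all 14890 genes. The 0 came from the fit with 13 calls in all, and the 32 and 11 from the replicate block. That block called 2380 genes lower and 2252 higher in all. The list counts also moved with 1 library left out. Gpx4 had 60 reads in control 2, the fewest of the 10 genes in any library.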

Other observations

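Slc7a11, the light chain of the cystine importer and a known NRF2 target, had almost no reads. They numbered 1 and 0 under the knockdown label and 6 and 4 in the controls, too few for the test. Its partner Slc3a2 was at 235 to 359 normalized counts. Osgin1, another NRF2 target, had at most 1 read in any library, and so did the microsomal glutathione transferase gene Mgst2.

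Gsr and Txnrd1 use NADPH, which G6pdx, Pgd and Me1 produce. G6pdx, the first enzyme of the pentose phosphate pathway, was at 51.2 and 47.3 normalized counts in the knockdown-labelled libraries against 64.7 and 71.3 (limma adjusted p = 0.0227), and it overlaps Ikbkg over 13.6% of its exon bases on the opposite strand. Pgd was at 134 and 124 against 154 and 163 (limma adjusted p = 0.0459), but it did not pass in the authors' deposited table (adjusted p = 0.0941). Me1 did not pass (limma adjusted p = 0.146), nor did Tkt (0.246) and Taldo1 (0.678), enzymes of the later, non-oxidative steps of that pathway. These genes were chosen after their values were seen. The ferritin heavy chain gene Fth1, at 461 and 471 against 506 and 560, did not pass either (limma adjusted p = 0.141), nor did the NRF2 relative Nfe2l1, at 329 and 335 against 345 and 377 (limma adjusted p = 0.326).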
